A study of Capra hircus with 2 samples.

Results

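The genes described here are the cytosolic creatine kinases, CKM (muscle isozyme) and CKB (brain isozyme), followed in longissimus thoracis, a back muscle, of Chinese Xuhuai goats (Capra hircus). They were taken by accession from the authors' lists of transcripts, NM_174773 for CKM and NM_001015613 for CKB, both cattle RefSeq transcripts, and are 2 of the 11663 accessions listed in either library. RNA sequencing had been done on 1 library of muscle from goats 6 months old and on 1 library of fetal muscle from day 90 of a gestation of 150 days. Both groups share breed and muscle, and no treatment or allele is named in the labels. The sources used here do not say how many animals went into each library, and the sampling text of the 6-month library describes embryo collection, as that of the fetal library does. With 1 library per stage no difference below could be tested across animals, no p-value is given, and each interval covers counting error only. The intervals treat every read as independent, so any reads copied by PCR would make them too narrow.

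Creatine kinase moves a phosphate group between ATP and creatine, so that a muscle fibre can restore ATP from phosphocreatine during contraction. The cytosolic enzyme is a dimer of M and B subunits, encoded by CKM and CKB, and further isozymes act in mitochondria. CKM is made mainly in striated muscle, where part of the enzyme is bound at the M-band of the sarcomere. CKB is the main form in brain and is also made in smooth muscle and other tissues. In developing skeletal muscle the B subunit is known to precede the M subunit, which prevails in mature fibres.

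Unique reads totalled 9144138 over 10850 accessions for the 6-month library, and 12811117 over 11393 accessions for the fetal one. These totals hold only unique reads assigned to listed accessions, and every share of reads below is a share of them. The files carry no gene symbols, and 0 of the 11663 accessions were found in the goat RefSeq gene table (assembly ARS1.2). Mitochondrial creatine kinases, creatine transport and synthesis genes and markers of other cell types were therefore not analysed here, and the tissue label could not be checked against a marker list. The deposited levels also showed a general shift between the libraries. Over 8201 accessions with an RPKM (reads scaled to transcript length and to the read total of the library) of at least 1 in both libraries, the median log2 ratio of the 6-month to the fetal RPKM was -0.58. RPKM is relative to the library total, so that shift does not measure the amount of RNA, and its source was not tested. Changes relative to the shift are given below beside those on the deposited RPKM.

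CKM was the second most abundant transcript of 6-month muscle and was far less abundant, though still prominent, in fetal muscle. Its transcript of 1709 bases had 374961 reads in the 6-month library and 48717 reads in fetal muscle. The RPKM of CKM was 23994 at 6 months (95% Poisson interval 23917 to 24071) and 2225 in fetal muscle (2205 to 2245). The 6-month library was the high one. In a bulk tissue sample such as this, fewer cells of a type and less RNA per cell cannot be told apart. CKM alone took 4.10% of the unique reads at 6 months (95% Clopper-Pearson interval 4.09% to 4.11%) and 0.38% of those in fetal muscle (0.377% to 0.384%).

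CKB, the other subunit, lay the opposite way. Its transcript of 1636 bases had 243 reads at 6 months and 4852 reads in fetal muscle. The RPKM of CKB was 16.2 at 6 months (14.3 to 18.4) and 231 in fetal muscle (225 to 238). For CKB the fetal library was the high one. The share of reads was 0.00266% at 6 months (0.00233% to 0.00301%) and 0.0379% in fetal muscle (0.0368% to 0.0390%). Reads were thus still assigned to CKB at 6 months, at 3.08 times the median RPKM of listed accessions, while in fetal muscle it stood at 28.1 times the median.

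**Figure D1:**
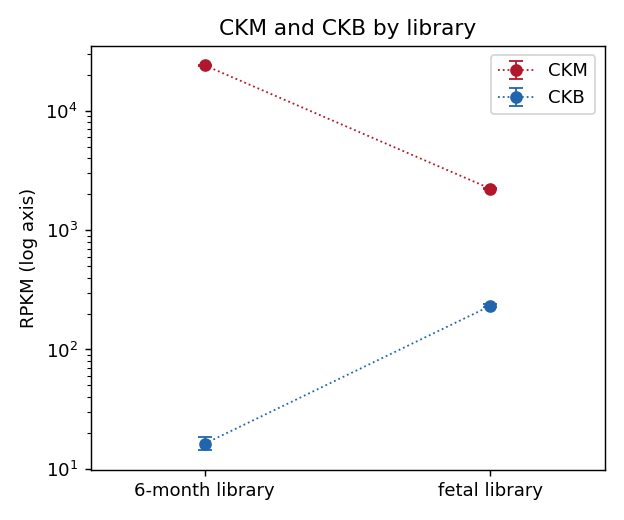
RPKM (log axis) of CKM and CKB in the 6-month library (left) and the fetal library (right). Bars are 95% Poisson intervals of the reads, smaller than the point except for CKB at 6 months, and dotted lines join the values of 1 gene. CKM is the higher isozyme in both libraries (23994 at 6 months and 2225 in fetal muscle), while CKB is 16.2 at 6 months and 231 in fetal muscle, so the gap between the isozymes is wider at 6 months.

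The read share of CKM was 10.8-fold higher at 6 months than in fetal muscle (95% interval 10.7 to 10.9). As log2(RPKM + 1) of the 6-month minus the fetal library, the difference was 3.43. Relative to the median ratio of the 8201 accessions with an RPKM of 1 or more at both stages, CKM was higher by 4.01 log2 units, or 16.1-fold. CKB was 14.3-fold lower at 6 months (95% interval 12.5 to 16.3), with a difference of -3.75 log2 units. Relative to the same median CKB was 9.54-fold lower, so allowing for the general shift makes its difference smaller and that of CKM larger.

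These sizes can be read against all 9705 accessions compared, those that reached an RPKM of 1 at one stage or the other. An accession counted as higher or lower when its difference reached 1 log2 unit, about 2-fold. By that measure 9.46% of accessions were higher at 6 months, CKM among them, and 35.1% were lower at 6 months, CKB among them. At 2 log2 units the shares were 3.49% higher and 10.8% lower. After centring on the median ratio, 17.2% were higher and 22.3% lower at 1 log2 unit. A difference as large as that of CKM was found for 79 accessions, CKM included, or 0.814% of those compared. One as low as that of CKB was found for 117 accessions, CKB included, or 1.21%. Both isozymes therefore lay near the ends of the distribution, but other accessions moved further in each direction.

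**Figure D2:**
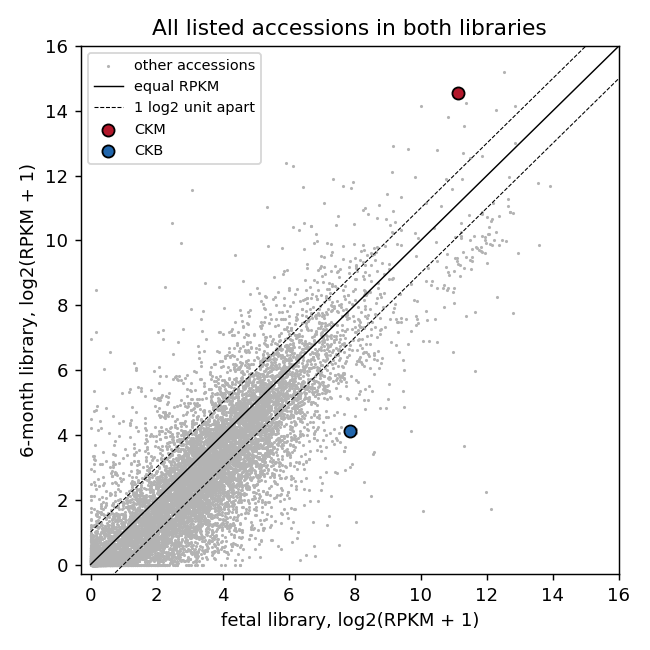
Each point is 1 accession, with log2(RPKM + 1) of the 6-month library on the vertical axis and of the fetal library on the horizontal axis. The solid line marks equal RPKM and the dashed lines 1 log2 unit. CKM lies 3.43 log2 units above the line of equal RPKM, at the upper end of the 6-month levels, and CKB at a difference of -3.75.

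In the band of most abundant transcripts, CKM went against the more common direction, as it did over all accessions. That band is wide and reaches far below the level of CKM. Of the 128 accessions whose mean RPKM was 1000 or more, 36 were higher at 6 months and 76 lower, and their median difference was -1.55 log2 units. Over all 9705 accessions compared, 9.46% were higher and 35.1% lower, so both calls were more frequent in the band. CKM had the 13th largest difference in favour of 6 months within the band. Measured as RPKM gained over the fetal library, its 21769 units were exceeded by 1 accession of the whole list. CKB falls in the band with a mean RPKM of 100 to 1000, where 176 of 592 accessions were higher at 6 months and 170 lower, with a median difference of 0.07 and an interquartile range of -1.22 to 1.21. Compared with all accessions, higher calls were more frequent in that band and lower calls less so. The difference of CKB was the 21st lowest of that band.

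The rank of both isozymes by RPKM moved accordingly. CKM was at rank 2 of 10850 accessions at 6 months and at rank 76 of 11393 in fetal muscle. At 6 months it was 0.635 times as abundant as the leading accession (95% interval 0.633 to 0.638) and 1.25 times as abundant as the third (1.24 to 1.26), so its place was set apart from both neighbours by more than counting error. In the fetal library the accessions just above and just below CKM did not differ from it beyond counting error. CKB was at rank 2919 of 10850 at 6 months and at rank 327 of 11393 in fetal muscle. Its RPKM exceeded that of 73.1% of listed accessions at 6 months and of 97.1% in fetal muscle. Counting error on its 243 reads leaves its 6-month rank between 2680 and 3181, and it was not distinct from its immediate neighbours in either library.

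**Figure D3:**
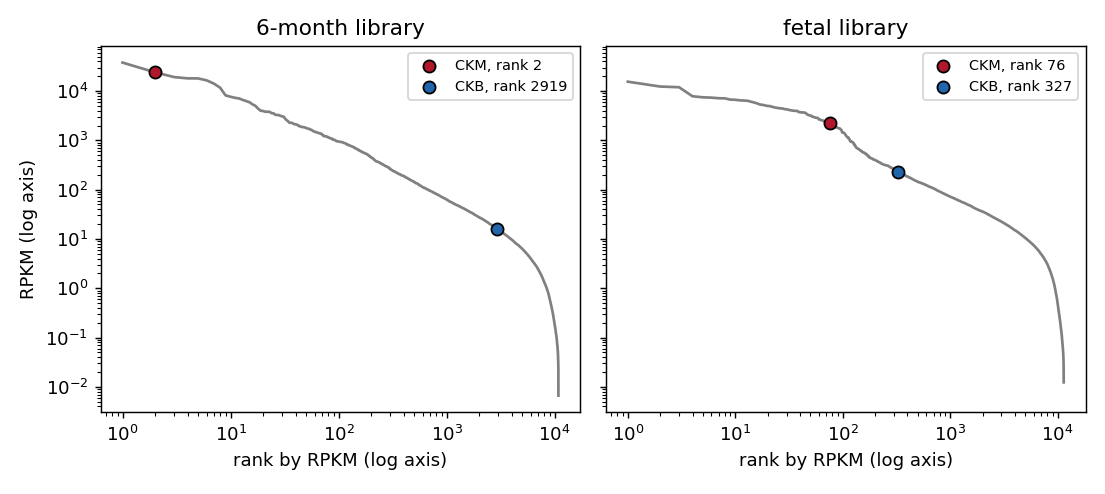
RPKM against rank by RPKM (both log axes) for all accessions listed in the 6-month library (left) and the fetal library (right), with CKM and CKB marked. CKM stands at rank 2 at 6 months and at rank 76 in fetal muscle, and CKB at rank 2919 at 6 months and at rank 327 in fetal muscle.

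The ratio of CKM to CKB within a library does not depend on the library total. The RPKM of CKM was 1477 times that of CKB at 6 months (95% interval 1303 to 1682) and 9.61 times that of CKB in fetal muscle (9.33 to 9.90). CKB accounted for 0.0677% of the summed RPKM of both isozymes at 6 months (0.0594% to 0.0767%) and for 9.42% in fetal muscle (9.17% to 9.68%). CKM was thus the prevailing isozyme at both stages, with a larger CKB part in fetal muscle. The ratio was 154-fold higher at 6 months, or 7.26 log2 units (95% exact conditional interval 7.07 to 7.45). Transcript lengths and library totals cancel in that value, and the general shift between the libraries does not enter it.

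The sum of both isozymes followed CKM. The summed RPKM was 24010.2 at 6 months and 2457 in fetal muscle, a 9.77-fold higher level at 6 months and a difference of 3.29 log2 units. Together the isozymes made up 4.10% of the reads at 6 months and 0.418% in fetal muscle. The 215 RPKM by which CKB was lower at 6 months compare with the 21769 RPKM by which CKM was higher, about 101 RPKM of CKM for each RPKM of CKB.

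Because RPKM is a share of the library, the large 6-month share of CKM by itself lowers the values of other transcripts there. Taking the reads of CKM out of both totals, a setting chosen after seeing the data, changed the difference of CKB from -3.75 to -3.70 log2 units. CKB stayed lower at 6 months, but this step could not have reversed it. Reads of CKM were only 4.10% of the 6-month total and 0.38% of the fetal total, so removing them shifts any other transcript slightly. The value of -3.70 therefore gives the size of that effect and does not test the direction of CKB. Under the other scalings CKM lay between 3.48 and 4.01 log2 units higher at 6 months, and CKB differed by -3.70 to -3.20. Each scaling applies 1 factor to a whole library, and the largest, centring, removes a log2 ratio of -0.58. That is far smaller than either difference, so these scalings could not have changed direction or call. They give only the range of sizes.

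**Figure D4:**
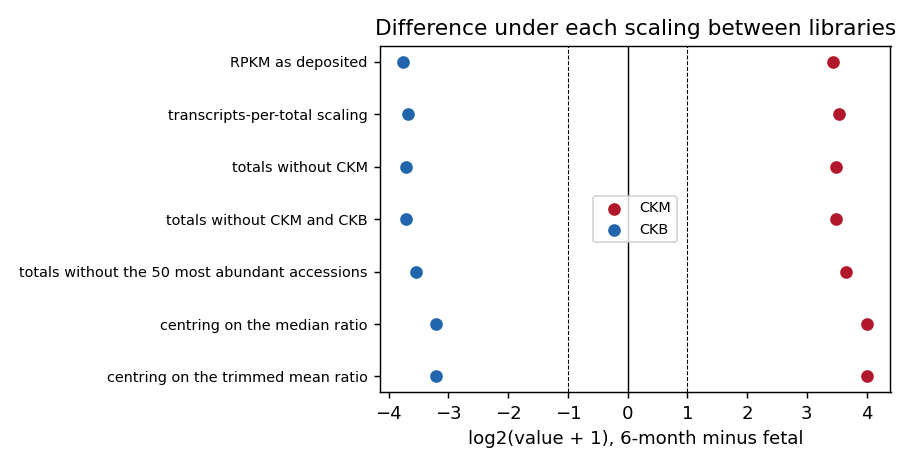
Difference between the 6-month and the fetal library on the log2(value + 1) scale for CKM and CKB, under the deposited RPKM (top row) and 6 other scalings between the libraries. The solid line marks no difference and the dashed lines 1 log2 unit. CKM stays at 3.43 or above and CKB at -3.20 or below in every row, though none of these scalings was large enough to reverse a direction.

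The coding sequences of the isozymes are alike, and how reads fitting both were treated is not stated beyond the column heading, which calls the reads unique. CKB reads came to 0.0648% of CKM reads at 6 months and 9.96% in fetal muscle. Whether any reads were assigned to the wrong isozyme was not tested. If some of the 243 CKB reads at 6 months came from CKM, the CKB level there would be lower and the ratio of 1477 higher than given. Had all 243 come from CKM, the same share of fetal CKM reads would give 31.6 reads, or 0.651% of fetal CKB reads. That figure assumes an equal share in both libraries and wrong assignment only from CKM to CKB. Neither assumption was tested. Reads of CKB covered 85.33% of its transcript at 6 months and 85.7% in fetal muscle, and where along it they lay is not recorded. CKM reads covered 96.2% at 6 months and 91.69% in fetal muscle.

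By the pair of levels, the accessions most like CKM were NM_001034034 and NM_001013590, at Euclidean distances of 0.41 and 0.81 over the log2(RPKM + 1) values of the 2 libraries. NM_001034034 had an RPKM of 19200.4 at 6 months and 2656 in fetal muscle. NM_001013590 had 14193 at 6 months and 1818 in fetal muscle. No accession besides these lay within 1 log2 unit of CKM, whereas 33 lay within 1 unit of CKB. Few accessions reach the level of CKM, at rank 2 at 6 months against rank 2919 for CKB. The counts therefore do not show that the pattern of CKM is the more particular. The nearest to CKB were NM_001271771, with an RPKM of 15.6 at 6 months and 264 in fetal muscle, and NM_178318, with 17.2 at 6 months and 264 in fetal muscle. With 2 libraries this likeness rests on 2 values per accession, and the files do not pair these accessions with gene names.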

How the data were processed

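Each accession has, per the file headers, a count of unique reads, a length in bases, the percent of that length covered by reads, and an RPKM computed by the authors. The sources used here do not describe the aligner, transcript set, genome build or strand handling. CKM and CKB are listed under cattle transcripts, whereas the reads came from goats. How sequence differences between the species affected the counts, the CKM to CKB ratios and the covered lengths was not tested. Counts deposited by the authors summed to the header totals, and recomputing RPKM from them matched the deposited RPKM to 1 part in 1000000. The span of a read was taken as 90 bases, from the coverage of accessions with 1 read.

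Differences were computed as log2(RPKM + 1), 6-month minus fetal, without a test, and called at 1 log2 unit. The pseudocount of 1 slightly understates the change of CKB. Intervals (95%) were exact Poisson for levels, Clopper-Pearson for shares and read ratios, and the exact conditional interval of Fisher's odds ratio for the change of the ratio. The genes named were CKM, CKB and, for each, the 2 accessions nearest in level. Members, lists and rules were chosen with earlier results of these data known. Alternatives covered pseudocount, scaling, minimum RPKM, threshold and length. Computations used SciPy 1.17.1, NumPy 2.4.6 and pandas 2.3.3 in Python 3.11.15, R 4.3.3 for the odds ratio and matplotlib 3.10.9 for figures.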

Additional observations from a re-analysis of the deposited data

How the results depend on the processing

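In all settings run, CKM stayed higher at 6 months (3.43 to 4.01 log2 units), CKB stayed lower (-3.82 to -3.20) and the sum stayed higher (3.29 to 3.87), each past 1 and 2 log2 units. No setting was large enough to reverse a direction, so the ranges describe size and do not test direction. Values outside the counting interval follow, for the 6-month minus the fetal library. CKM became 3.54 with transcripts-per-total scaling, 4.01 with either centring (median or trimmed mean ratio), 3.66 with totals without the 50 most abundant accessions and 3.48 with totals without CKM and CKB. With totals without CKM alone, a setting chosen after seeing the data, CKM became 3.49. CKB became -3.48 with a pseudocount of 5, -3.20 with either centring and -3.55 without the 50. The sum became 3.40 with transcripts-per-total scaling, 3.87 with either centring, 3.52 without the 50 and 3.34 without CKM and CKB. The creatine kinase share without the 50 became 5.83% at 6 months and 0.535% in fetal muscle. The fetal ratio of CKM to CKB became 10.04 without length correction and 8.98 on covered length. Ranked by reads, CKM was 26th in fetal muscle, and CKB was 3556th at 6 months and 323rd in fetal muscle. Over all accessions, calls higher and lower at 6 months numbered 918 and 3411 on RPKM, 1674 and 2162 with median centring, and 1678 and 2157 with trimmed centring. No paired analysis was possible because each stage had 1 library, and for the same reason no replicate could be left out. The depth limits CKB at 6 months most, with 243 reads. The spread between animals is unknown.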

Other observations

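The coverage of both transcripts was compared after the data had been seen. CKB was left without reads over 240 bases at 6 months, at 13.4 read-bases per base, and over 234 bases in fetal muscle, at 267 read-bases per base. The deeper reading of CKB in the fetal library thus left about as many of its bases uncovered. CKM was left without reads over 65 bases at 6 months, at 19746 read-bases per base, and over 142 bases in fetal muscle, at 2566 read-bases per base. For 3225 accessions read to a depth of 10 or more at both stages, the median of the covered percentage was 87.76% at 6 months and 88.19% in fetal muscle. CKB lay above 41.3% of them at 6 months and above 40.7% in fetal muscle. CKM lay above 87.1% at 6 months and above 64.2% in fetal muscle. Which bases were uncovered is not recorded in the deposited lists.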
